A study of Mus musculus with 17 samples.

Results

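The 9 genes Klf2, Hhex, Tle3, Ski, Zeb2, Foxp1, Satb1, Lef1 and Tcf7 encode transcription factors and corepressors linked to the resting state of lymphocytes or to the memory B cell fate. They were taken by symbol from the deposited table of 55536 genes, where all 9 were found, and all 9 were among the 15352 genes that passed a filter on low counts. Lef1 and Tcf7 were low in every GC library and are discussed with that limit. The RNA came from B cells sorted from the mouse spleen at 3 stages: naive cells, activated cells, and germinal centre (GC) cells, which proliferate, mutate their antibody genes and compete for selection. The 17 libraries formed 6 groups, namely p52ki naive, WT naive, p52ki activated, WT activated, p52ki GC and WT GC, with 3 libraries in each except the p52ki GC group, which had 2. WT mice were wild type and p52ki mice carried a p52 knock-in, p52 being the NF-kB subunit made from Nfkb2. The labels give neither the design of the knock-in allele nor the age of the mice, any immunisation, the sort gates or whether replicates were separate animals. The p-values thus measure the spread between these samples, which may be technical. The main fit shares that spread over all 6 groups, so a GC comparison does not use the spread of the GC libraries alone. By its title, the study asked about p52 bound to ETS1, a factor of the ETS family, when germinal centres form.

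A resting B cell is held out of the cell cycle by an active programme and recirculates between blood, spleen and lymph nodes. KLF2 is a zinc finger factor known for that programme: in lymphocytes it is required for quiescence and for transcription of homing receptors such as S1pr1. HHEX is a homeodomain repressor which, in the mouse, works with the corepressor TLE3 to turn GC B cells into memory B cells. LEF1 and TCF7 are HMG box factors that carry beta-catenin to WNT target genes and are best known from T cells and early B cell development.

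Promoter sequence is shown for the 3 genes that were higher in p52ki than in WT GC cells, because the study concerns a complex of an NF-kB subunit and an ETS factor. The windows are read 5′ to 3′ on the gene's strand from RefSeq on GRCm38.p6. They are the bases just before the start of the gene for Klf2 (chr8:72318812-72319032) and Hhex (chr19:37434591-37434809). For Zeb2 the window (chr2:45117443-45117692, minus strand) holds the bases before the first of 4 listed starts, which lies upstream of the gene position given below. Capitals mark each match to GGGNNNNNCC, a loose form of the NF-kB site, or to CCGGAA, a core of ETS sites, on either strand.
Klf2: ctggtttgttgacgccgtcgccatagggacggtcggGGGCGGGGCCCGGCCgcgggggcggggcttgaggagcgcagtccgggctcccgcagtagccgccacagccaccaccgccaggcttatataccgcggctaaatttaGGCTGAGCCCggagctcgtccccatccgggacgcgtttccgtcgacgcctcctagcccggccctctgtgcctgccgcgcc
Hhex: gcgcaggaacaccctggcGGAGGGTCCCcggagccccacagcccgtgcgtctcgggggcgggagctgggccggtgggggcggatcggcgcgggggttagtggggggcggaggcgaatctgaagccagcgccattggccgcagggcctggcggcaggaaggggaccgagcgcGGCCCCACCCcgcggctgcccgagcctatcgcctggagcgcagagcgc
Zeb2: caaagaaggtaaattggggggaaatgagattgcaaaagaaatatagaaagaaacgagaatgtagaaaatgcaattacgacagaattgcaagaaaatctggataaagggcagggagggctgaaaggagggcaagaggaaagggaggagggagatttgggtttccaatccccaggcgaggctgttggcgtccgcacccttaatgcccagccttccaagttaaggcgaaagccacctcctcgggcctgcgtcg

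The Klf2 window held 4 matches to GGGNNNNNCC, of which 3 overlap each other, the Hhex window held 2, and the Zeb2 window held none. None of the 3 windows held CCGGAA. Over the 250 bases before each RefSeq start, GGGNNNNNCC occurred at 14 of the 22 starts listed for the 9 genes, against 45.8% of 32851 promoters, and CCGGAA occurred at 1 of the 22, a start of Tcf7, against 12.03% of promoters. These letters are common in promoters, and a match is no evidence of binding.

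Totals ran from 4067281 to 10036347 counts per library. Genes detected with 1 count or more set some GC libraries apart, at 11390 and 13044 in p52ki GC replicates 2 and 5, against 18449, 11232 and 19135 in WT GC replicates 1, 3 and 4, with 16745 to 19672 in the naive and activated libraries. Levels are given as CPM, the count relative to a library total scaled by TMM, and a difference is on the log2 scale with its standard error (SE). Adjusted p-values, which had to be under 0.05 for a call, come from the quasi-likelihood test of edgeR on all 17 libraries after Benjamini-Hochberg adjustment across the 15352 genes, unless another tool is named. A fit without p52ki GC replicate 2 or 5 keeps 1 library in that group, whose spread is assumed to be that of the other groups. The p52ki libraries are numbered 19 to 30 and the WT libraries 1 to 12, so a batch that follows that order cannot be told apart from genotype.

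In p52ki GC cells Klf2, Hhex and Zeb2 were higher than in WT GC cells, by 1.74, 1.85 and 1.64 on the log2 scale, and Lef1 was lower, with no count in either p52ki library. Of the 9 genes 3 were thus called higher, against a background of 3.75% of all genes tested, and 1 was called lower, against 12.2%, or 4 of 9 in either direction, against 16%. Klf2, Hhex, Tle3 and Zeb2 had p52ki GC libraries entirely above the WT ones, as 9.45% of all genes did, and none of the 9 had them entirely below, as 15.4% did. In bulk RNA, fewer cells of a type and less RNA per cell cannot be told apart, in this and every other comparison here. Between naive cells, and between activated cells, none of the 9 was called between the genotypes. All 9 had a fitted level below that of activated cells in GC cells of both genotypes, where the all-gene median change was -0.41 in p52ki and -0.13 in WT. Of the 9 genes 6 were called lower in p52ki, against 19.3% of all genes, and 7 in WT, against 7.75%. The median difference of the 9 genes between p52ki and WT GC cells was 1.56, and it was 1.56 as well with Lef1 set at its bound, while the median over all genes was -0.32.

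**Figure D1:**
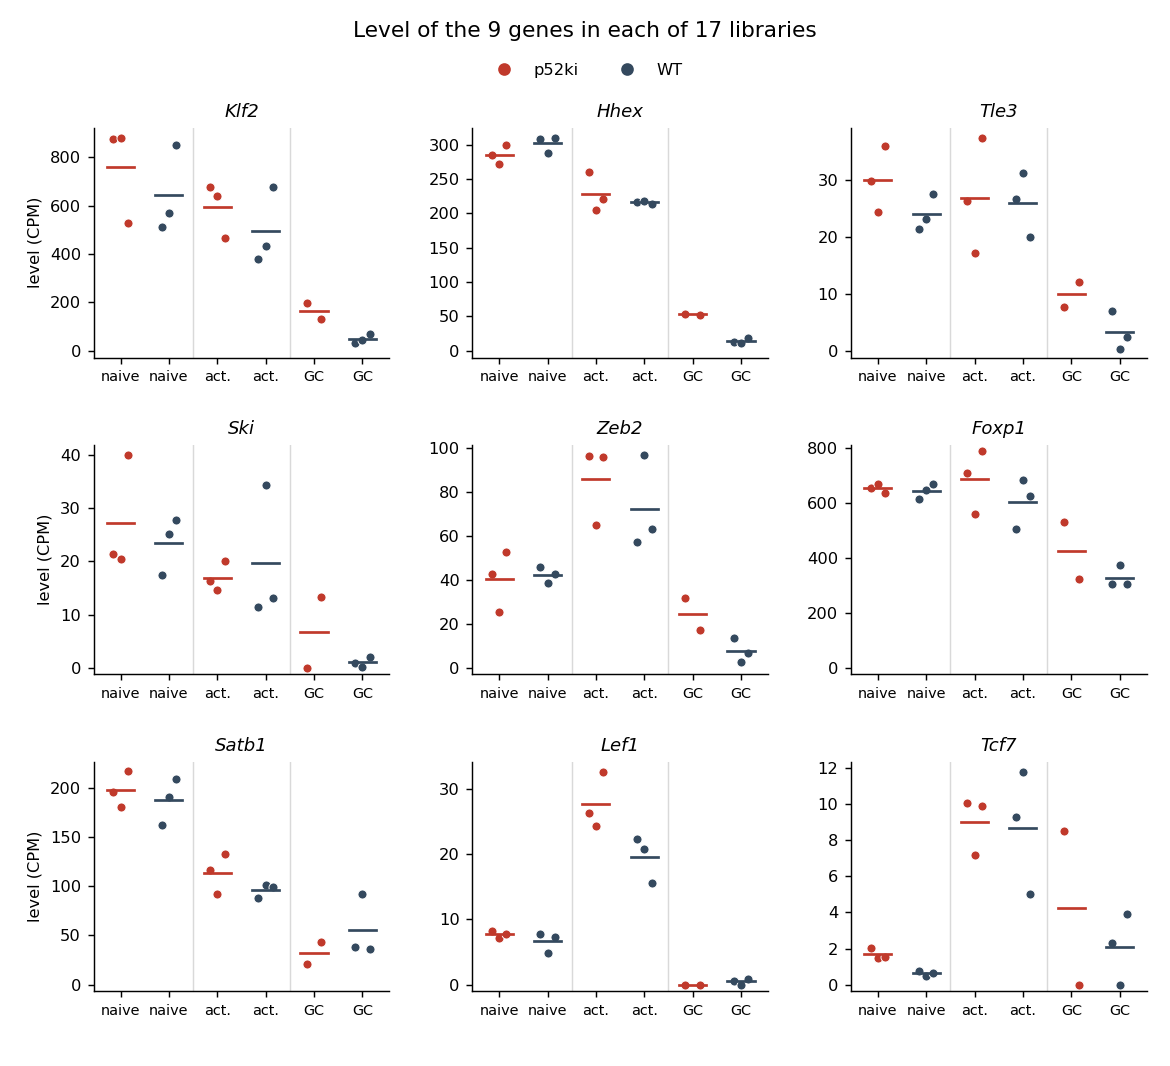
Level of each gene in CPM (vertical axis, linear) in each library, by stage (horizontal axis; act. is activated), with p52ki in red to the left of WT in blue; each point is a library and the bar is the group mean. Klf2 and Hhex drop in GC cells of both genotypes and lie higher in both p52ki GC libraries than in all 3 WT GC libraries, whereas Lef1 is highest in activated cells and at or near 0 in GC cells.

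Klf2 (chr8:72319033-72321656) stood at 873, 879 and 528 CPM in p52ki naive replicates 2, 3 and 5, against 512, 570.0 and 849.9 CPM in WT naive replicates 1, 3 and 4. In activated cells it had 678, 642 and 465 CPM in p52ki, against 381, 433 and 677 CPM in WT. In GC cells it had 197 and 132 CPM in p52ki replicates 2 and 5, against 33.9, 43.4 and 70.0 CPM in WT. The genotypes overlapped in naive and activated cells, and in GC cells the lower p52ki library was above the highest WT library. Klf2 averaged 164 ± 45.6 CPM in p52ki GC cells (SD, n = 2) and 49.1 ± 18.7 CPM in WT GC cells (SD, n = 3), a log2 difference of 1.74 (SE 0.354, adjusted p = 0.00567). The p52ki minus WT differences of 0.24 in naive cells (SE 0.317) and 0.26 in activated cells (SE 0.317) had an adjusted p of 1.

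Klf2 fell between the activated and the GC stage in both genotypes, with a log2 change of -1.86 in p52ki (SE 0.381, adjusted p = 0.00393) and -3.34 in WT (SE 0.348, adjusted p = 3.89e-05). GC cells kept 21.6% of the naive level in p52ki and 7.62% in WT. The difference between the genotypes in this stage change was 1.48 (SE 0.476, adjusted p = 0.0756), which did not pass the test. It passed in 6 of 21 alternatives, among them leaving out p52ki GC replicate 5 (adjusted p = 0.034, with a lone p52ki GC library whose spread is borrowed from other groups) or WT GC replicate 4 (adjusted p = 0.0426), and ranged from 1.16 to 1.83.

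Hhex (chr19:37434810-37440731) had 285, 271 and 299.7 CPM in p52ki naive cells, against 308, 288 and 309 CPM in WT, and 260.2, 204 and 221 CPM in p52ki activated cells, against 217, 218 and 214 CPM in WT. In GC cells it had 54.3 and 51.7 CPM in p52ki replicates 2 and 5, from 224 and 315 counts, against 13.2, 11.4 and 19.1 CPM in WT, from 103, 56 and 176 counts. The p52ki and WT GC libraries did not overlap. The GC means were 52.97 ± 1.83 CPM in p52ki (SD, n = 2) and 14.6 ± 4.04 CPM in WT (SD, n = 3), a log2 difference of 1.85 (SE 0.211, adjusted p = 7.37e-05).

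Relative to activated cells, Hhex changed by -2.11 (log2) in p52ki GC cells (SE 0.226, adjusted p = 5e-05) and by -3.88 in WT GC cells (SE 0.21, adjusted p = 1e-07). The stage change differed between the genotypes by 1.78 (SE 0.281, adjusted p = 0.00161). Hhex was the only one of the 9 genes called in that test, against a background of 0.977% of genes called higher, 4.97% called lower and 5.95% in either direction. It was called in 20 of 21 alternatives, with a range of 1.5 to 2.15. GC cells kept 18.6% of the naive level of Hhex in p52ki and 4.83% in WT.

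Klf2 and Hhex were called between the GC groups in 13 of 15 alternatives each, and their differences ran from 1.42 to 2.09 and from 1.67 to 2.22. The fits without the call were limma voom with sample quality weights (adjusted p = 0.434 for Klf2 and 0.187 for Hhex) and edgeR on the GC libraries alone (adjusted p = 0.579 and 0.6). In that comparison limma voom with weights called 15 of 15352 genes, and edgeR on the GC libraries alone called 0 of 12620, with 951 at an unadjusted p under 0.05.

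**Figure D2:**
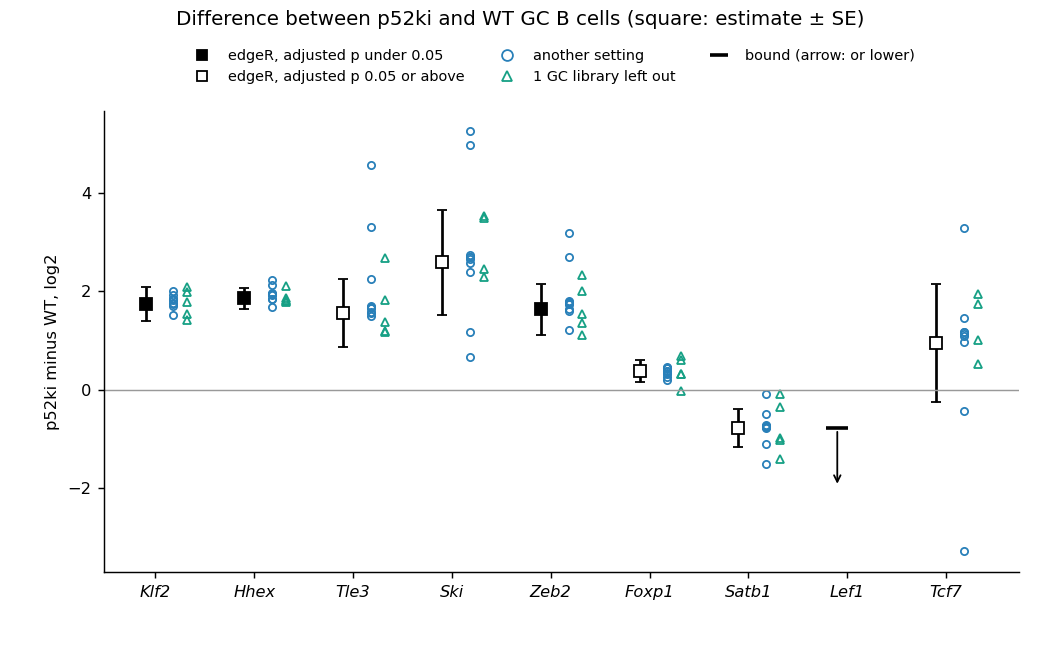
Difference between p52ki and WT GC B cells on the log2 scale (vertical axis) for each gene; squares are the edgeR estimate ± SE, filled where the adjusted p was under 0.05, circles are other settings and triangles leave out 1 GC library. Klf2 and Hhex stay between 1.42 and 2.22 throughout, Zeb2 runs from 1.12 to 3.19, Lef1 is drawn as its bound, and fits in which a group had no count are not plotted.

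Tle3 (chr9:61372366-61418497), the Groucho family corepressor that HHEX recruits, had 29.8, 24.3 and 35.9 CPM in p52ki naive cells, against 21.4, 23.2 and 27.5 CPM in WT. Activated cells had 26.3, 17.1 and 37.3 CPM in p52ki, against 26.7, 31.2 and 19.9 CPM in WT. In GC cells it had 7.75 and 12.1 CPM in p52ki, against 7.05, 0.407 and 2.50 CPM in WT, where replicate 3 rests on 2 counts. The p52ki GC libraries were above all WT GC libraries, the lower of them only narrowly, and the difference of 1.56 (SE 0.684, adjusted p = 0.127) did not pass. Without WT GC replicate 1 it was 2.68 and passed (adjusted p = 0.022). Between activated and GC cells the Tle3 change was -1.43 in p52ki (SE 0.709, adjusted p = 0.148), which did not pass, and -2.94 in WT (SE 0.653, adjusted p = 0.00742), which did. The difference between these changes was 1.51 (SE 0.909, adjusted p = 0.342).

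Ski (chr4:155154075-155222592, minus strand), a corepressor that blocks SMAD signals of the TGF-beta pathway, rested on few counts in GC cells. It had 0 and 13.3 CPM in p52ki GC replicates 2 and 5, from 0 and 81 counts, against 0.898, 0.204 and 2.07 CPM in WT, from 7, 1 and 19 counts. The p52ki libraries thus lay on either side of all WT libraries, and the difference of 2.59 (SE 1.07, adjusted p = 0.107) rested on replicate 5. Without p52ki GC replicate 2 it was 3.53 (adjusted p = 0.00586), a value that sets a lone p52ki library, with the spread of other groups, against WT. Activated cells had 16.3, 14.5 and 20.0 CPM in p52ki, against 11.4, 34.3 and 13.2 CPM in WT, and naive cells had 21.4, 20.5 and 39.9 CPM in p52ki, against 17.5, 25.2 and 27.7 CPM in WT. Between activated and GC cells Ski changed by -1.32 (log2) in p52ki (SE 1.057, adjusted p = 0.377), which did not pass, and by -4.13 in WT (SE 1.05, adjusted p = 0.0163). The difference between these changes was 2.81 (SE 1.39, adjusted p = 0.238). The WT call was lost without WT activated replicate 3 (adjusted p = 0.0626) or without WT GC replicate 1 (adjusted p = 0.0574).

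Zeb2 (chr2:44983632-45117395, minus strand) encodes a zinc finger homeobox repressor known from effector T cells, myeloid cells and an age-associated subset of B cells. It was highest in activated cells, with 96.1, 64.9 and 96.0 CPM in p52ki, against 57.1, 96.6 and 63.3 CPM in WT. Naive cells had 42.4, 25.5 and 52.8 CPM in p52ki, against 45.8, 38.7 and 42.7 CPM in WT, and GC cells had 31.5 and 17.1 CPM in p52ki, against 13.7, 2.65 and 6.74 CPM in WT. The GC groups did not overlap, and the activated libraries of each genotype were all above its naive libraries. Zeb2 was higher in p52ki than in WT GC cells by 1.64 (SE 0.515, adjusted p = 0.0432), but the call was lost in 6 of 15 alternatives. It was lost without p52ki GC replicate 2 (adjusted p = 0.217) or WT GC replicate 4 (adjusted p = 0.106), with thinned counts (0.0714), with limma voom and quality weights (0.573) or a replicate block (0.117), and in the GC libraries alone (0.707).

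Zeb2 fell between activated and GC cells, with a log2 change of -1.82 in p52ki (SE 0.547, adjusted p = 0.0256) and -3.22 in WT (SE 0.5, adjusted p = 0.000604). The p52ki call was lost without activated replicate 2 (adjusted p = 0.0711), activated replicate 5 (adjusted p = 0.0588) or GC replicate 5 (adjusted p = 0.102). The antisense gene Zeb2os overlaps Zeb2 and held 601 counts over all libraries. Without a stated strand setting the reads of the pair cannot be told apart where they overlap.

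Foxp1 (chr6:98925338-99522721, minus strand), a forkhead factor needed for early B cell development and for the resting state of naive T cells, had 654, 668 and 636 CPM in p52ki naive cells, against 615, 646 and 669 CPM in WT, and 708, 559 and 787 CPM in p52ki activated cells, against 506, 683 and 623 CPM in WT. GC cells had 529 and 324 CPM in p52ki, against 305, 375 and 303 CPM in WT. The GC groups overlapped, and the difference of 0.38 (SE 0.22, adjusted p = 0.25) did not pass. It was 0.68 without p52ki GC replicate 5 (adjusted p = 0.0462) and -0.03 without p52ki GC replicate 2, each from a lone p52ki library with a borrowed spread.

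Between activated and GC cells Foxp1 changed by -0.68 (log2) in p52ki (SE 0.226, adjusted p = 0.0379) and by -0.88 in WT (SE 0.2, adjusted p = 0.00816). The p52ki call did not survive leaving out any activated library (adjusted p = 0.167, 0.0656 and 0.108 without replicates 2, 3 and 5) or GC replicate 5 (adjusted p = 0.233). GC cells kept 65.3% of the naive level in p52ki and 51.0% in WT. Gm20696, a same-strand gene that overlaps Foxp1, held 6548 counts over all libraries, and reads shared by the pair may have been split or dropped.

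Satb1 (chr17:51736187-51833290, minus strand), an organiser of chromatin loops best known from thymocytes, had its highest levels in naive cells, at 196, 180.5 and 216 CPM in p52ki and 162, 190.3 and 209 CPM in WT. Activated cells had 117, 91.9 and 133 CPM in p52ki, against 87.6, 101 and 98.9 CPM in WT. In GC cells it had 21.1 and 43.5 CPM in p52ki, against 38.6, 91.8 and 36.1 CPM in WT. The naive libraries of each genotype were above all its activated libraries, and the GC groups overlapped. The GC difference was -0.77 (SE 0.381, adjusted p = 0.173), opposite in sign to those of Klf2 and Hhex. It was -1.40 (adjusted p = 0.038) without p52ki GC replicate 5, again with a lone p52ki library and a borrowed spread, and -0.09 (adjusted p = 0.844) without WT GC replicate 3.

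Satb1 fell between activated and GC cells of p52ki (log2 -1.81, SE 0.396, adjusted p = 0.00544). In WT the change was -0.79 (SE 0.332, adjusted p = 0.136), and it became -1.36 (adjusted p = 0.00221) without WT GC replicate 3, the library with the highest GC level and the fewest detected genes of the 5. The difference between the genotypes in the stage change was -1.02 (SE 0.502, adjusted p = 0.234).

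**Figure D3:**
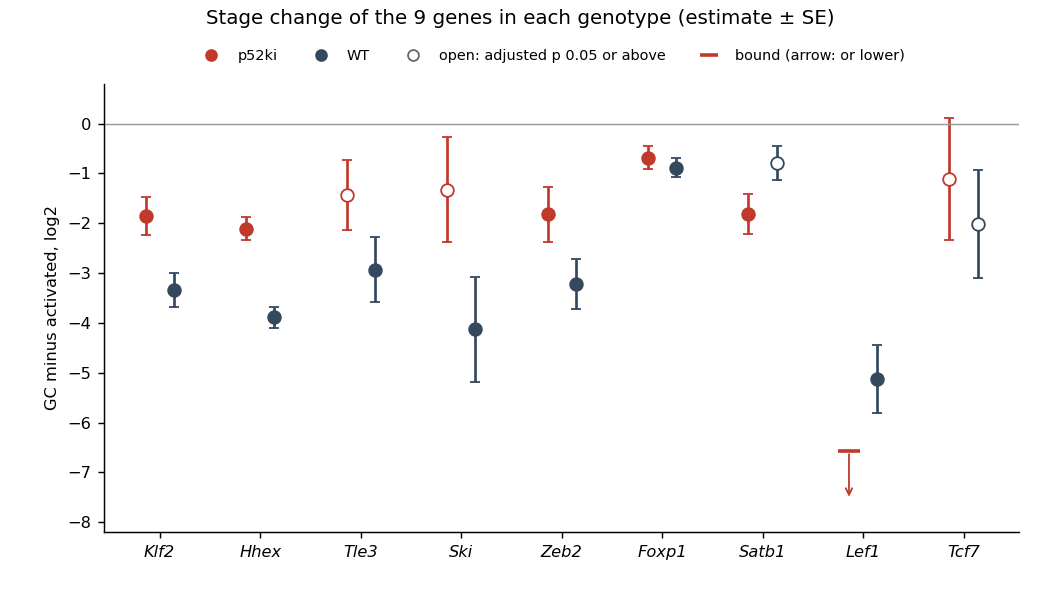
Change from activated to GC cells on the log2 scale (vertical axis) for each gene in p52ki (red) and WT (blue); points are the edgeR estimate ± SE, and open points had an adjusted p of 0.05 or above. Hhex changed by -2.11 in p52ki and -3.88 in WT, the pair of changes whose difference was called, and Lef1 in p52ki is drawn at its bound.

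Lef1 (chr3:131110471-131224356) had its highest levels in activated cells. It stood at 8.28, 7.13 and 7.70 CPM in p52ki naive cells, against 7.83, 4.92 and 7.34 CPM in WT, and 26.3, 24.3 and 32.5 CPM in p52ki activated cells, against 22.4, 20.8 and 15.5 CPM in WT. In GC cells neither p52ki library had a count, and WT had 0.641, 0 and 0.870 CPM, from 5, 0 and 8 counts. All activated libraries were above all naive libraries, and all GC libraries were below both.

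The p52ki activated libraries of Lef1 did not overlap the WT ones, with a log2 difference of 0.50 (SE 0.547, adjusted p = 1). Activated minus naive differences of 1.84 in p52ki (SE 0.565, adjusted p = 0.504) and 1.54 in WT (SE 0.562, adjusted p = 0.541) did not pass. DESeq2 called both, with adjusted p of 1.17e-07 and 4.64e-05. Against a floor of 3 counts over the p52ki GC group, Lef1 was at least 94.4-fold lower in p52ki GC than in p52ki activated cells (adjusted p = 0.000132). In WT the log2 change was -5.12 (SE 0.682, adjusted p = 0.000233).

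Between the GC groups Lef1 was at least 1.72-fold lower in p52ki than in WT by the same floor (adjusted p = 0.0397). That call rests on 13 counts in WT, and it was lost in 9 of 13 alternatives, among them leaving out p52ki GC replicate 2 or 5 (adjusted p = 0.0929 and 0.105) or WT GC replicate 1 or 4 (adjusted p = 0.0729 and 0.0882). WT GC replicate 3, with as few detected genes as the p52ki GC libraries, also had 0 counts of Lef1.

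Tcf7 (chr11:52252371-52283014, minus strand) was low in naive cells, at 2.04, 1.48 and 1.52 CPM in p52ki, against 0.734, 0.492 and 0.633 CPM in WT. Activated cells had 10.02, 7.16 and 9.89 CPM in p52ki, against 9.27, 11.7 and 5.01 CPM in WT. In GC cells it had 8.48 and 0 CPM in p52ki, against 2.31, 0 and 3.91 CPM in WT. All activated libraries were above all naive ones, the p52ki naive libraries were all above the WT naive ones, and each GC group held a library without a count.

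The naive difference of Tcf7 was 1.41 (SE 1.16, adjusted p = 1) and the GC difference 0.95 (SE 1.19, adjusted p = 0.612). Activated minus naive, Tcf7 differed by 2.42 in p52ki (SE 1.1, adjusted p = 1) and by 3.77 in WT (SE 1.2, adjusted p = 0.345), and DESeq2 called the WT difference (adjusted p = 0.026). On the scale of TPM, a level per length of transcript, Tcf7 was at 7.05 ± 1.84 TPM in p52ki activated cells (SD, n = 3) and Lef1 at 6.41 ± 1.29 TPM (SD, n = 3).

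Both genes are strongly transcribed in T cells, so T cell markers were read beside them. Without Cd2 and Lck, which B cells also transcribe, the other 20 markers summed to 26.5, 33.6 and 14.8 CPM in p52ki naive libraries, against 17.6, 20.3 and 21.02 CPM in WT, and to 72.0, 74.0 and 31.4 CPM in p52ki activated libraries, against 40.0, 39.0 and 71.1 CPM in WT. The activated sums lay above the naive ones in WT, whereas in p52ki they overlapped. Within the p52ki activated group, replicate 5 had the lowest sum and the highest Lef1. Of 18 tested markers of the full list of 22 none was called between activated and naive cells. Of all genes 0.117% were called in p52ki and 0.319% in WT. The median log2 difference of the markers was 1.36 in p52ki and 1.53 in WT. Lef1 differed by 1.84 and 1.54, and Tcf7 by 2.42 and 3.77.

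In GC cells the sum was 48.9 and 5.74 CPM in p52ki replicates 2 and 5, with 17 of the 20 markers at 0 in each, against 15.3, 13.0 and 22.8 CPM in WT. The p52ki library with 8.48 CPM of Tcf7 was the one with 26.6 CPM of Cd3e, a chain of the T cell receptor complex, which was at 0 in the other p52ki GC library and at 0 to 0.761 CPM in WT GC cells. That library also had 11.4 CPM of Cd3d and 10.9 CPM of Trbc2, but Cd3g, Cd247, Trac and Trbc1 were at 0. Of 18 tested markers of the full list, 2 were called higher and 2 lower in p52ki than in WT GC cells. All-gene shares were 3.75% and 12.2%, and the median difference of the markers was -1.90. The part of T cell RNA in the Lef1 and Tcf7 values was not tested.

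**Figure D4:**
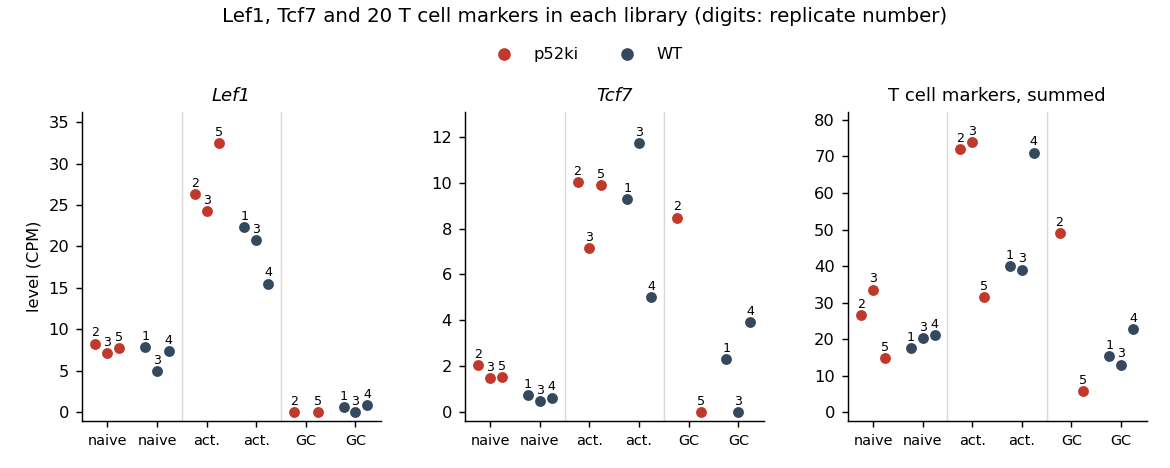
Level in CPM (vertical axis, linear) of Lef1, of Tcf7 and of 20 T cell markers summed, in each library by stage, with p52ki in red to the left of WT in blue; each point is a library and the digit its replicate number. Lef1 and Tcf7 lie higher in every activated than in every naive library, the marker sums of p52ki activated and naive cells overlap, and p52ki GC replicate 2 has both the highest Tcf7 and the highest marker sum of the 5 GC libraries.

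Between activated and GC cells, 6 of the 9 genes were called lower in p52ki, against 19.3% of all genes, namely Klf2, Hhex, Zeb2, Foxp1, Satb1 and Lef1. In WT 7 were called lower, against 7.75% of all genes, namely Klf2, Hhex, Tle3, Ski, Zeb2, Foxp1 and Lef1. None was called higher, against 6.34% of genes in p52ki and 5.8% in WT, and in either direction 25.6% and 13.6% of genes were called. In each genotype 8 of the 9 had GC libraries entirely below the activated ones, all but Tcf7 in p52ki and all but Satb1 in WT, against 38.2% of genes in p52ki and 19.5% in WT. The median change of the 9 genes was -1.81 in p52ki, with or without Lef1 at its bound, and -3.22 in WT, while the median of all genes was -0.41 and -0.13.

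From naive to activated cells edgeR called 0 of the 9 in either genotype, against 0.117% of all genes in p52ki (0.0847% higher, 0.0326% lower) and 0.319% in WT (0.254% higher, 0.0651% lower). At an unadjusted p under 0.05 there were 4 of 9 in each, against 614 of 15352 genes in p52ki and 860 in WT. They were Zeb2, Satb1, Lef1 and Tcf7 in p52ki and Hhex, Satb1, Lef1 and Tcf7 in WT. DESeq2 called 1 in p52ki and 2 in WT, against 150 and 302 of 15352 genes. With limma voom and quality weights 4 and 5 were called, against 1236 and 1624 of 15352 genes. The fit of edgeR on the groups compared alone called 4 and 3, against 473 of 13603 genes and 352 of 13445. Zeb2, Lef1 and Tcf7 had activated libraries entirely above the naive ones in each genotype, as 10.8% of genes did in p52ki and 9.46% in WT. Satb1 and Hhex in each genotype, and Ski in p52ki, had them entirely below, as 8.12% and 9.35% of genes did. The Satb1 differences were -0.80 in p52ki (SE 0.33) and -0.97 in WT (SE 0.332), with adjusted p of 1 and 0.459.

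Between p52ki and WT none of the 9 was called in activated cells, where 0.013% of all genes were, 0.00651% higher and 0.00651% lower, or in naive cells, where 0 were. Only Lef1 in activated cells and Tcf7 in naive cells had p52ki libraries entirely above the WT ones, as 3.15% and 5.21% of genes did, and none had them entirely below, as 2.95% and 5.48% did. No member had an unadjusted p under 0.05 in either comparison, and DESeq2, limma voom with quality weights and edgeR on the groups compared alone also called none. The differences ran from -0.22 for Ski to 0.50 for Lef1 in activated cells and from -0.08 for Hhex to 1.41 for Tcf7 in naive cells. The SE of these differences was 0.185 for Hhex and 0.198 for Foxp1 but 0.892 for Ski and 1.16 for Tcf7 in naive cells, so the comparison was far less precise for the last pair. In the test of the genotypes' difference in the activated minus naive change edgeR called none of the 9 and 0 of all genes, with 65 genes at an unadjusted p under 0.05.

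By mean level per length, Klf2 was the most abundant of the 9 in every group. It was at 147 ± 43.5 TPM in p52ki GC cells (SD, n = 2) and 51.96 ± 18.8 TPM in WT GC cells (SD, n = 3). Foxp1 came second by mean in GC cells, at 51.3 ± 18.4 TPM in p52ki and 46.9 ± 6.09 TPM in WT (SD, n = 2 and 3). In WT GC replicates 1 and 3 Foxp1 was above Klf2, at 53.9 and 44.2 TPM against 44.5 and 38.1 TPM. In WT GC replicate 4 Klf2 was higher, at 73.3 TPM against 42.6 TPM. Hhex followed at a mean of 17.3 ± 0.917 TPM in p52ki and 5.77 ± 1.9 TPM in WT, and the other 6 genes averaged under 6 TPM in both. In TPM, which is not scaled by TMM, the Tle3 values of 1.11 and 1.70 in p52ki GC cells overlapped those of 1.47, 0.0567 and 0.415 in WT GC cells. The Zeb2 values of 2.64 and 1.39 in p52ki also overlapped those of 1.67, 0.215 and 0.654 in WT, whereas the Klf2 and Hhex values overlapped on neither scale.

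Markers of naive follicular B cells, a list of 10 that includes Fcer2a, Ccr7, Ighd and S1pr1, were also higher in p52ki GC cells. They summed to 1821 and 2278 CPM in p52ki GC replicates 2 and 5, against 719, 971 and 913 CPM in WT, and 8 of the 10 were called higher, against 3.75% of all genes. As a share of the naive mean the sum was at 18.3% and 22.9% in p52ki GC libraries, against 7.14%, 9.65% and 9.06% in WT. Klf2 was at 25.9% and 17.4% of its naive mean in the same p52ki libraries, against 5.26%, 6.73% and 10.9% in WT, and Hhex at 19.02% and 18.1%, against 4.38%, 3.78% and 6.34%. Zeb2 was at 78.3% and 42.4% of its naive mean in p52ki, against 32.4%, 6.25% and 15.9% in WT. In p52ki the shares of Klf2 and Hhex thus lay on either side of that of the marker sum and those of Zeb2 above it, while in WT those of Klf2 and Zeb2 lay on either side and those of Hhex below.

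GC markers, a list of 10 with Bcl6 and Mki67, summed to 1397 and 2270 CPM in p52ki GC cells, against 4111, 2445 and 3787 CPM in WT, with 1 of 10 called lower, against 12.2% of all genes, and none at 0 in any GC library. Pan-B cell markers summed to 13489 and 16596 CPM in p52ki, against 10947, 10309 and 12246 CPM in WT.

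Myeloid and dendritic cell markers summed to 428.5 and 397 CPM in p52ki GC cells and 208.5, 236 and 276 CPM in WT. Of the 19 markers 13 and 14 were at 0 in the p52ki libraries and 6, 13 and 7 in the WT ones. Lyz2, Csf1r and Itgam were at 0 in both p52ki libraries. Cst3, which averaged 279 CPM in p52ki and 161 CPM in WT, made up most of the sum. Ly6c2 and Cd68 averaged 65.2 and 20.6 CPM in p52ki, against 6.67 and 6.94 CPM in WT. Of 14 markers tested 1 was called higher and 2 lower, against 3.75% and 12.2% of all genes. Natural killer cell markers summed to 33.9 and 16.2 CPM in p52ki and 8.59, 0.611 and 14.6 CPM in WT. Of the 11 markers 7 and 9 were at 0 in p52ki and 4, 10 and 2 in WT. Ncr1 was at 0 in both p52ki libraries, and Gzma and Nkg7 were each at 0 in 1 of them. Gzma and Nkg7 averaged 10.4 and 6.06 CPM in p52ki, against 1.01 and 0.997 CPM in WT. Of 10 of these markers tested 0 were called higher and 1 lower. Erythroid and platelet markers summed to 326 and 372 CPM in p52ki and 48.9, 62.1 and 236 CPM in WT. Of these 11 markers 7 were at 0 in each p52ki library and 5, 9 and 2 in WT. The globin genes Hbb-bs, Hbb-bt, Hba-a1 and Hba-a2 averaged 88.5, 117, 87.4 and 55.7 CPM in p52ki, against 34.3, 48.3, 18.3 and 12.5 CPM in WT. Of 6 of these markers tested 0 were called higher and 0 lower. The part of naive cells or of other cell types in the differences of Klf2, Hhex and Zeb2 was not tested. When the edgeR fit also held each library's detected genes as a term, the differences were 2.01 for Klf2, 2.12 for Hhex and 2.69 for Zeb2. Their adjusted p in that fit was 0.00598, 5.43e-05 and 0.0092. It called 1996 of 15352 genes higher, against 575 without the term, and the all-gene median was 0.06, against -0.32. Against WT GC replicate 3 alone, which has as few detected genes, Klf2 was higher in p52ki by 1.93, Hhex by 2.22 and Zeb2 by 3.19. The all-gene median was then 0.01. A lone library has no spread of its own, so only the size of these differences is given.

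**Figure D5:**
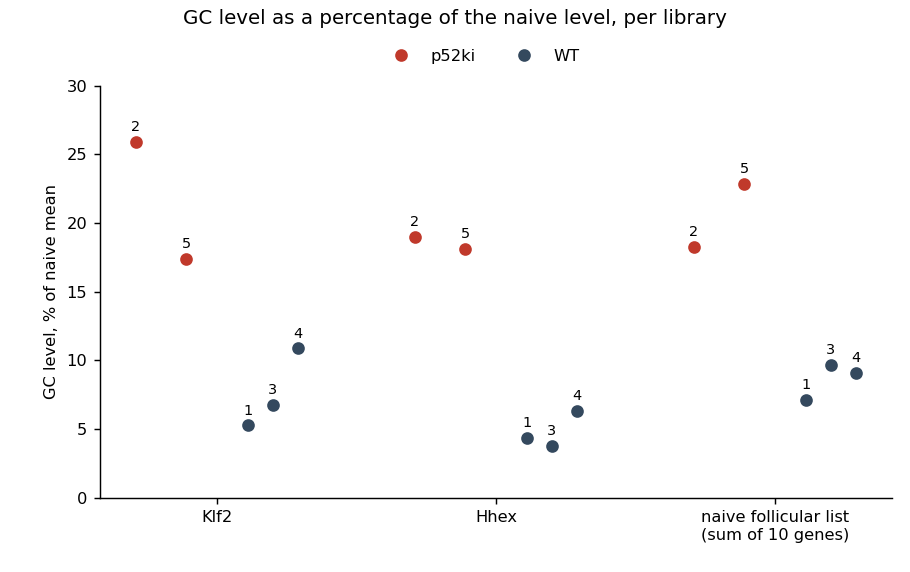
GC level of Klf2, of Hhex and of the summed naive follicular markers as a percentage of the mean of the naive libraries of the same genotype (vertical axis, from 0), per GC library, with p52ki in red to the left of WT in blue; digits are replicate numbers. All p52ki libraries lie between 17.4% and 25.9% and all WT libraries between 3.78% and 10.9%.

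For the pathway lists, the counts stand beside the shares of all genes given above, 3.75% called higher and 12.2% called lower between the GC groups, and the all-gene median of -0.32. Of 11 genes linked to KLF2 in lymphocyte homing, 5 were higher in p52ki than in WT GC cells and none lower, with a median difference of 1.07. Ccr7, the chemokine receptor for T cell zones, had 176 and 87.8 CPM in p52ki GC cells, against 10.1, 10.4 and 20.8 CPM in WT (log2 3.25, SE 0.384, adjusted p = 0.000105). Cr2, the complement receptor CD21, differed by 1.44 (SE 0.32, adjusted p = 0.00974). S1pr1, the egress receptor that KLF2 is best known to drive, had 41.7 and 66.8 CPM in p52ki, against 36.4, 5.70 and 35.0 CPM in WT. Between activated and GC cells 5 of the 11 fell and 1 rose in p52ki, against 19.3% and 6.34% of all genes, and 10 fell and none rose in WT, against 7.75% and 5.8%, among them Ccr7 (log2 -4.62) and S1pr1 (-4.33). Of the 11 genes 6 are also naive follicular markers.

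Memory B cell genes were called higher in p52ki GC cells in 7 of 17 cases and lower in none, with a median of 1.10. Vim, which encodes a filament protein, had 304 and 260.2 CPM in p52ki, against 119.5, 124 and 152 CPM in WT (log2 1.10, SE 0.187, adjusted p = 0.00172). Its naive libraries had 200, 200 and 179 CPM in p52ki, against 191, 196 and 204 CPM in WT. The survival gene Bcl2 had 44.1 and 27.6 CPM in p52ki, against 4.10, 0 and 7.93 CPM in WT (log2 3.09, SE 0.69, adjusted p = 0.00985), and Fcer2a, which encodes CD23, differed by 0.94 (SE 0.225, adjusted p = 0.0134). From activated to GC cells, 2 of the 17 fell and 5 rose in p52ki, against 19.3% and 6.34% of all genes. In WT, where 7.75% of all genes fell and 5.8% rose, 8 fell, among them Cd38 (log2 -3.71) and Bcl2 (-4.45), and 2 rose, among them Bach2 (1.53), a repressor that holds GC and memory cells back from the plasma cell fate. Of the 18 genes on the list 5 are naive follicular markers.

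Of 24 general regulators of quiescence and cell cycle exit, 2 were higher and 3 lower in p52ki GC cells, with a median of -0.03. Those lower were Cdkn2c, an inhibitor of cyclin-dependent kinases (0 and 2.79 CPM in p52ki, against 37.7, 20.0 and 28.9 CPM in WT, adjusted p = 0.00774), Tsc1, a brake on mTOR signalling (log2 -1.88, adjusted p = 0.0222), and Pik3ip1, an inhibitor of PI3 kinase (log2 -2.46, adjusted p = 0.0261). In each genotype 9 of the 24 fell between activated and GC cells and none rose, where 19.3% of all genes fell in p52ki and 7.75% in WT. In WT they were led by the antiproliferative gene Btg1 (log2 -1.64), Txnip (-1.56), which curbs glucose uptake, and Slfn2 (-1.81), which in mouse T cells is needed for quiescence.

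Among partners of TLE and SKI corepressors 1 of 18 was higher and 3 were lower in p52ki GC cells. Hes1, a repressor that recruits TLE proteins, had 85.03 and 29.2 CPM in p52ki, against 4.74, 5.29 and 8.59 CPM in WT (log2 3.19, SE 0.43, adjusted p = 0.000266), and it was the only one of the 18 called between WT GC and activated cells (log2 -3.52). The SMAD inhibitor Smad7 had 0 and 0.656 CPM in p52ki, against 14.2, 12.01 and 12.3 CPM in WT (adjusted p = 0.000605), and the histone deacetylase gene Hdac2 had 7.75 and 56.1 CPM in p52ki, against 117, 148 and 123 CPM in WT (adjusted p = 0.02).

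Of 21 relatives of the 9 genes none was higher and 2 were lower in p52ki GC cells, and both had no count in either p52ki library. Foxp3, a relative of Foxp1 that defines regulatory T cells, had 11.03, 22.6 and 6.85 CPM in WT. It was at least 46.0-fold lower in p52ki by the floor of 3 counts. Klf11 had 5.90, 0 and 8.37 CPM in WT and was at least 16.2-fold lower in p52ki by the same floor. WT GC replicate 3, with as few detected genes as the p52ki GC libraries, also had no count of Klf11. In WT Klf13 (log2 -1.02) and Klf3 (log2 -3.24), another repressor of the KLF family, fell between activated and GC cells, and Klf5 had no count in GC cells. Of 15 WNT and beta-catenin partners none was higher and 2 were lower in p52ki GC cells, the scaffold genes Axin1 (10.2 and 0.492 CPM in p52ki, against 76.4, 38.3 and 43.7 CPM in WT, adjusted p = 0.0135) and Dvl2 (log2 -1.50, adjusted p = 0.0186). Myc was the only one of the 15 called between GC and activated cells of WT (log2 -1.79, SE 0.507, adjusted p = 0.0287).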

How the data were processed

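RNA was measured in 17 libraries of sorted mouse splenic B cells. Per the labels' protocols, libraries were made with SMART-Seq v2 from 0.5 ng of RNA or from part of a sample, with 17 PCR cycles and no unique molecular identifiers named. The authors deposited raw counts per gene in one table. Per the submitters' processing notes, reads were processed on GRCm38 with featureCounts (Subread 1.6.2), SAMtools 1.8 and HISAT2 2.1.0. The sources used here do not give the strand setting, the treatment of multi-mapping reads or the release of the gene annotation.

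From these counts, genes were filtered with filterByExpr (15352 of 55536 kept) and fitted with edgeR 4.0.16 in R 4.3.3 (TMM, robust glmQLFit, glmQLFTest, 1 coefficient per group, all 17 libraries), and 9 contrasts were tested with Benjamini-Hochberg adjustment over all genes kept. The fitting code was tested on simulated data. Alternatives used limma 3.58.1, DESeq2 1.42.0, RLE scaling, no filter, immunoglobulin genes removed, counts thinned to 4067281 per library, detected genes as a covariate, the compared groups alone, replicate blocks, and each library left out. CPM values use the TMM-scaled total, and TPM values use the summed exon length of each gene. Positions are from a GENCODE annotation of GRCm38 and promoters from RefSeq on GRCm38.p6. A fold against a group without counts uses a floor of 3 counts over that group. Floors cover counting error only, and they treat counts as independent molecules, which PCR copies are not. The SE of an edgeR difference comes from the quasi-likelihood test and includes the spread between libraries.

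The text names the 9 genes, up to 3 called genes per pathway list with the smallest p in each of 2 comparisons (p52ki against WT in GC cells, and GC against activated cells in WT), the 3 genes nearest to each member in pattern, and S1pr1 also between the genotypes. Some genes that this rule names are not reported here. The members, the 6 pathway lists and the 8 marker lists were chosen with earlier results of these data known. The T cell list without Cd2 and Lck was formed after values were seen and is a description only.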

Additional observations from a re-analysis of the deposited data

Results flagged for a closer look

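Hhex was picked out because its change between the activated and the GC stage differed between p52ki and WT by the test of that difference itself. The difference was 1.78 on the log2 scale (SE 0.281, edgeR adjusted p = 0.00161), with a log2 change of -2.11 in p52ki and -3.88 in WT. Both p52ki GC libraries were above all 3 WT GC libraries, while the naive and the activated libraries of the genotypes overlapped.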

How the results depend on the processing

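Of 853 member values under alternatives, 740 kept their direction and side of the threshold, 54 gained the call, 47 lost it and 12 reversed. Members called between p52ki and WT GC cells numbered 4, but 0 with limma voom and quality weights and 0 in the GC libraries alone. The count was 2 with thinned counts, against 2207 of 13821 genes, and 2 with the replicate block as a random effect, against 1846 of 15352. Without WT GC replicate 4 it was 2 as well, against 1737 of 15228 genes. Between GC and activated cells of p52ki, the count of 6 became 1 with limma voom and 3 with detected genes as a covariate, and it also moved with 1 library left out. In WT, the count of 7 became 4 with the compared groups alone, and 6 to 8 with 1 library left out, where 1305 to 2637 of all genes were called. Between activated and naive cells, the count of 0 became 1 in p52ki and 2 in WT with DESeq2, 4 and 5 with limma voom, and 4 and 3 with the compared groups alone. For the difference in the GC minus activated change, the count of 1 became 2 without a filter, 3 with DESeq2, 0 with limma voom, 5 with the covariate and 2 with the replicate block in edgeR. That count also moved with 1 library left out. The number of all genes called moved as well. For the difference in the GC minus activated change it was 913 of 15352 in the main fit. It was 2243 with DESeq2, 13 with limma voom, 2041 with the covariate, 271 with the replicate block and 1185 of 28272 without a filter. Between GC and activated cells of p52ki it was 3930, but 190 with limma voom and 2761 with the covariate. In WT it was 2081, but 571 of 13208 with the compared groups alone. The cause was not tested in any case.

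Reversed differences between p52ki and WT GC cells were Tcf7 at -3.27 with limma voom and -0.43 with the replicate block. With 1 p52ki GC library left out, which leaves a lone library with a borrowed spread, Ski ran from -6.2 to 3.53, Foxp1 from -0.03 to 0.68 and Tcf7 from -7.14 to 1.95, the lowest Ski and Tcf7 values being fits to a group without counts and no bounds. In the GC minus activated change of p52ki the covariate turned Tle3 to 0.85, Ski to 2.04 and Tcf7 to 1.64. In the difference between the genotypes' changes Tcf7 was -3.89 with limma voom, and with 1 library left out Ski ran from -5.98 to 3.74, Foxp1 from -0.21 to 0.49 and Tcf7 from -7.2 to 1.89. The labels do not say that a replicate number marks a shared animal or day, and not every same-numbered pair correlated above 0.1 in its deviations from group means, so the numbers were not taken to pair the samples. All naive and activated pairs were positive, at 0.0919 to 0.281 in p52ki and 0.0786 to 0.183 in WT, with 2 of 3 above 0.1 in each genotype, and 4 of 6 p52ki and 6 of 6 WT libraries correlated best with their own number. Pairs with a GC library ran from -0.229 to 0.068. The block left the count of members called between activated and naive cells at 0 in each genotype. No fit gave Lef1 a value in the GC libraries alone, where it fell below the filter, or against WT GC replicate 3 alone, where both groups are at 0. Tle3, Ski, Lef1 and Tcf7 rest on few counts, at most 81 in any GC library.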

Other observations

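Among the 9 genes themselves, the profiles of Klf2 and Hhex over the 6 groups were the closest pair, with a root mean square difference of 0.227 on the log2 scale between centred means of log2 CPM (prior count 2), followed by Klf2 and Tle3 at 0.237. Foxp1 and Lef1 were the farthest apart, at 2.16.

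By the same measure, among 10032 other genes over the 6 groups, Rhbdf2 (0.141), Ifi213 and Slc2a3 lay nearest to Klf2, Sidt1 (0.162), Lilra6 and Calhm6 to Hhex, Cerkl, Ifi203 and Slc2a1 to Tle3, and Pip5k1b, Ssbp2 and Pglyrp2 to Ski. Zeb2os, the antisense neighbour of Zeb2, lay nearest to it (0.103), before Tifa and Il15ra, while Rnf114, Orc2 and Atrip lay nearest to Foxp1 and Phf1, Pisd-ps1 and Cyb5r1 to Satb1. Fam129c (0.304), Lysmd2 and Trim30c lay nearest to Lef1, and Myb (0.29), Pla2g7 and Ly6k to Tcf7. A library without a count weighs strongly in a mean of log2 values. Rhbdf2, for example, averaged 13.4 CPM in p52ki GC cells and 12.4 CPM in WT GC cells, unlike Klf2, and Sidt1 averaged 13.2 CPM and 0.872 CPM. These distances are descriptions with no test.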
